A study of Mus musculus with 4 samples.

Results

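Open chromatin was examined at 10 genes that act in the primitive streak and in early mesoderm of the mouse embryo: T, Eomes, Mixl1, Gsc, Mesp1, Mesp2, Msgn1, Tbx6, Meox1 and Hand1. The genes were chosen by name, with earlier results of these data known. Their loci were defined as the gene body and 20 kb on either side, by the RefSeq annotation of GRCm38.p6, in which 21883 protein-coding genes were placed on chromosomes. Every peak that overlapped such a window was counted. Such peaks numbered 112 and 113 in the wt libraries and 106 and 108 in the Hox-/- libraries, of 191704 to 216795 listed per library. Pairs of values are given with replicate 1 first throughout. Where peaks of the 4 libraries were joined by an overlap of at least 1 bp, the loci held 95 of 208141 regions.

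The cells were mouse embryonic stem cells of 2 genotypes with 2 libraries each, profiled by ATAC-seq, in which a transposase cuts accessible DNA. The wt cells and the Hox-/- cells, which by the series title lack Hox function and whose library names carry the letters BADC, were kept in the same medium. Per the labels it held 10% serum, 100 ng/ml leukaemia inhibitory factor (LIF), 3 μM of the GSK-3 inhibitor CHIR99021 and 1 μM of the MEK inhibitor PD0325901. The libraries were amplified by 12 cycles of PCR. All libraries came from stem cells, with no differentiation named in the labels, so by label the loci were seen in undifferentiated cells. Whether the 2 libraries of a genotype came from separate cultures or clones is not given in the sources used here, so the spread between them may be technical.

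In the gastrulating embryo, cells leave the epiblast through the primitive streak under Wnt, Nodal, BMP and FGF signals. The T-box factors T (Brachyury) and Eomes and the homeobox factors Mixl1 and Gsc mark the streak. The basic helix-loop-helix (bHLH) factors Mesp1 and Mesp2 act in nascent and presomitic mesoderm, Msgn1 and Tbx6 in presomitic mesoderm, Meox1 in somites, and Hand1 in extraembryonic and lateral mesoderm and in trophoblast. Naive embryonic stem cells keep these genes largely silent, many of them under Polycomb control. The Hox genes themselves are switched on in sequence in the streak and its mesoderm. Inhibition of GSK-3 activates the Wnt pathway, of which T is a known target.

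In GRCm38.p6 the streak genes lie at chr17:8434423-8442496 (T), chr9:118478186-118486132 (Eomes), chr1:180693043-180697034 (Mixl1) and chr12:104471209-104473236 (Gsc). The bHLH pair of early mesoderm lies at chr7:79792241-79793590 (Mesp1) and chr7:79810727-79813431 (Mesp2), so that their windows overlap. The presomitic genes lie at chr12:11208382-11208948 (Msgn1) and chr7:126781483-126785548 (Tbx6), Meox1 at chr11:101877510-101894354 and Hand1 at chr11:57828713-57832147.

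The lists give no read counts, so depth is unknown. Among peaks with a fold over background of 4.5 to 5.5, the median −log10 p was 20.2 to 20.8 in both wt libraries and Hox-/- replicate 2, and 14.9 in Hox-/- replicate 1, which also had the shortest list. For that reason peaks were compared by their rank within a library, rank 1 being the peak with the highest −log10 p of the list. All 7 stem cell markers, Pou5f1, Sox2, Nanog, Klf4, Esrrb, Zfp42 and Tfcp2l1, had a peak within 1 kb of a gene end in all 4 libraries. So did 4 of 6 fibroblast markers, 5 of 6 primitive endoderm markers and 4 of 5 trophoblast markers, so a listed peak at a gene end did not set stem cell markers apart from the others. The best ranks at the ends overlapped as well: over genes and libraries they ran from 4940 (Zfp42) to 146334 (Esrrb) for stem cell markers, from 8019 (Cdx2) to 195721 for trophoblast, from 21089 to 170420 for fibroblast and from 41543 to 160451 for primitive endoderm markers.

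Promoter sequences are shown for 3 genes, since they show how differently the peaks lay on these promoters: T and Mesp1 had peaks over the 250 bases before the start site in every library, and Msgn1 had 0. RefSeq promoters (build GRCm38.p6) matched 7 of the 10 genes, T, Eomes, Gsc, Mesp1, Mesp2, Msgn1 and Tbx6. Each sequence gives the 250 bases before the start site, 5′ to 3′ on the gene's own strand. Capitals mark the T-box core AGGTGT and the TCF/LEF core CTTTGA, the letters bound by T-box factors and by the factors of the Wnt pathway, in either orientation.
T, chr17:8434173-8434422, plus strand: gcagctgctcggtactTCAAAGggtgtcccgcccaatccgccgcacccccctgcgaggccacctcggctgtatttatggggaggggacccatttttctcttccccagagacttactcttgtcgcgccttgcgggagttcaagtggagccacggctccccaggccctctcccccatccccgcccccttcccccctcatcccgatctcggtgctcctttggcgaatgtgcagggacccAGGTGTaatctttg
Mesp1, chr7:79793591-79793840, minus strand: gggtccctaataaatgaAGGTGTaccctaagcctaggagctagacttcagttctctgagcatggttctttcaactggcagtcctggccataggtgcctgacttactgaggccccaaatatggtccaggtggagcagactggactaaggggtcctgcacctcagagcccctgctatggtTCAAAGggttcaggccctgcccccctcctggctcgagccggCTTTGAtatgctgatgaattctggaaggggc
Msgn1, chr12:11208949-11209198, minus strand: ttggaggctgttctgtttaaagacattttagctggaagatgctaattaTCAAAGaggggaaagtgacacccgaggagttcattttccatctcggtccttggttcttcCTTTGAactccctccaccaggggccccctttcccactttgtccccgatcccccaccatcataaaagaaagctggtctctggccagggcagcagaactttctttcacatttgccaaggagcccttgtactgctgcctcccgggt

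The TCF/LEF letters stood in 3 of the 7 promoters (T, Mesp1 and Msgn1) and in 13.8% of 32851 RefSeq promoter stretches of the same length. The T-box core stood in 2 of the 7 (T and Mesp1) and in 11.8% of all. The E-box CANNTG, bound by bHLH factors, stood in 5 of 7 and in 66.2% of all, and in T 1 of its 3 matches overlapped the T-box core. The Smad letters CAGAC stood in 2 of 7 (Mesp1 and Tbx6) and in 42.2% of all. The GATA letters AGATAA stood in 0 of 7 and in 9.99% of all. Both strands were searched, and a match is a string of letters, not a bound site.

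The content of CpG, which marks promoters that tend to be open regardless of transcription, differed widely. The Gsc stretch had 22 CpG and that of T had 14, Eomes and Mesp2 had 8 each, Tbx6 had 6, Msgn1 had 4 and Mesp1 had 2. Over all RefSeq promoters, 92.3% of those with 15 or more CpG, 59.9% of those with 5 to 14 and 11.7% of those with fewer than 5 were covered by a peak in all 4 libraries. Mesp1, with 2 CpG, was covered in all 4 libraries by 2 or 3 peaks, the best of which ranked 41453 to 57393. T and Gsc, which are richer in CpG, were also covered in all 4, by peaks of which the best ranked 106372 to 151294 at T and 118343 to 155115 at Gsc. The median best rank of covered promoters was 15286 among those with 15 or more CpG, 20738 among those with 5 to 14 and 49595 among those with fewer than 5. Mesp1 was thus near the median of covered promoters of its class, and T and Gsc were far below the medians of theirs. Eomes was covered in all 4 libraries, Mesp2 in Hox-/- replicate 2 alone, and Msgn1 and Tbx6 in 0 libraries.

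The streak and mesoderm genes had peaks at their ends, but weak ones. Of the 10 genes, 9 had a peak within 1 kb of a gene end in all 4 libraries (Meox1 had 0 such peaks in each), as did 69.1% of protein-coding genes. Among the 15118 protein-coding genes with such a peak in all 4 libraries the median of the best rank at an end was 19060, as a geometric mean over libraries. Each of the 9 genes stood below that median. The best rank at an end averaged 33668 for Tbx6, 49531 for Mesp1, 59238 for Mixl1, 65884 for Eomes, 75196 for Mesp2, 134149 for T, 134259 for Hand1, 137877 for Gsc and 157782 for Msgn1. Of the genes with an end peak, 65.9% had a stronger one than Tbx6 and 99.0% a stronger one than Msgn1.

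Only Tbx6 had a peak at an end among the 50000 strongest of the list in every library, whereas 49.3% of protein-coding genes had one. That region of Tbx6, chr7:126779993-126780975, ended 508 bp before its start site and lay within 1 kb of an end of the neighbouring gene Ypel3. By the peaks of this region within 1 kb of the Tbx6 end the best ranks were 31751 and 32539 in wt against 32939 and 37756 in Hox-/-, which did not overlap, though wt replicate 2 and Hox-/- replicate 1 were close. By the best peak of the whole region they were 31751 and 32539 against 32939 and 29731, and the genotypes overlapped.

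Stronger openings lay away from the members' own ends. In 8 of the 9 genes with peaks at the ends and beyond, the best peak of the window lay beyond 1 kb of the gene ends in all 4 libraries, against 52.9% of 14739 protein-coding genes. The exception was Mixl1, a window with only 3 regions, where the region over the gene end at the higher coordinate was the best. The best peak also lay beyond the ends in 6 of 7 stem cell markers. So it did in 3 of 4 fibroblast, 3 of 5 primitive endoderm and 2 of 4 trophoblast markers with peaks in both places. Of the 64 regions called in all 4 libraries, 20 were among the 50000 strongest in every library, a share near that of all such regions (30.3%). They were 4 regions at Eomes, 4 at Tbx6, 3 at Mesp1, 3 at Meox1, 2 at Msgn1, 2 at Hand1, 1 at Gsc and 1 at Mesp2, and 0 at T and Mixl1. Of the 20, 1 lay at an end of a member, the Tbx6 region just described. The windows also hold ends of other genes: 10 of the 95 regions lay within 1 kb of one, and so did 6 of the 20 strong regions. These were all 4 at Tbx6, so that its best peaks stood at ends of neighbours, 1 at Eomes and 1 at Mesp1.

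**Figure D1:**
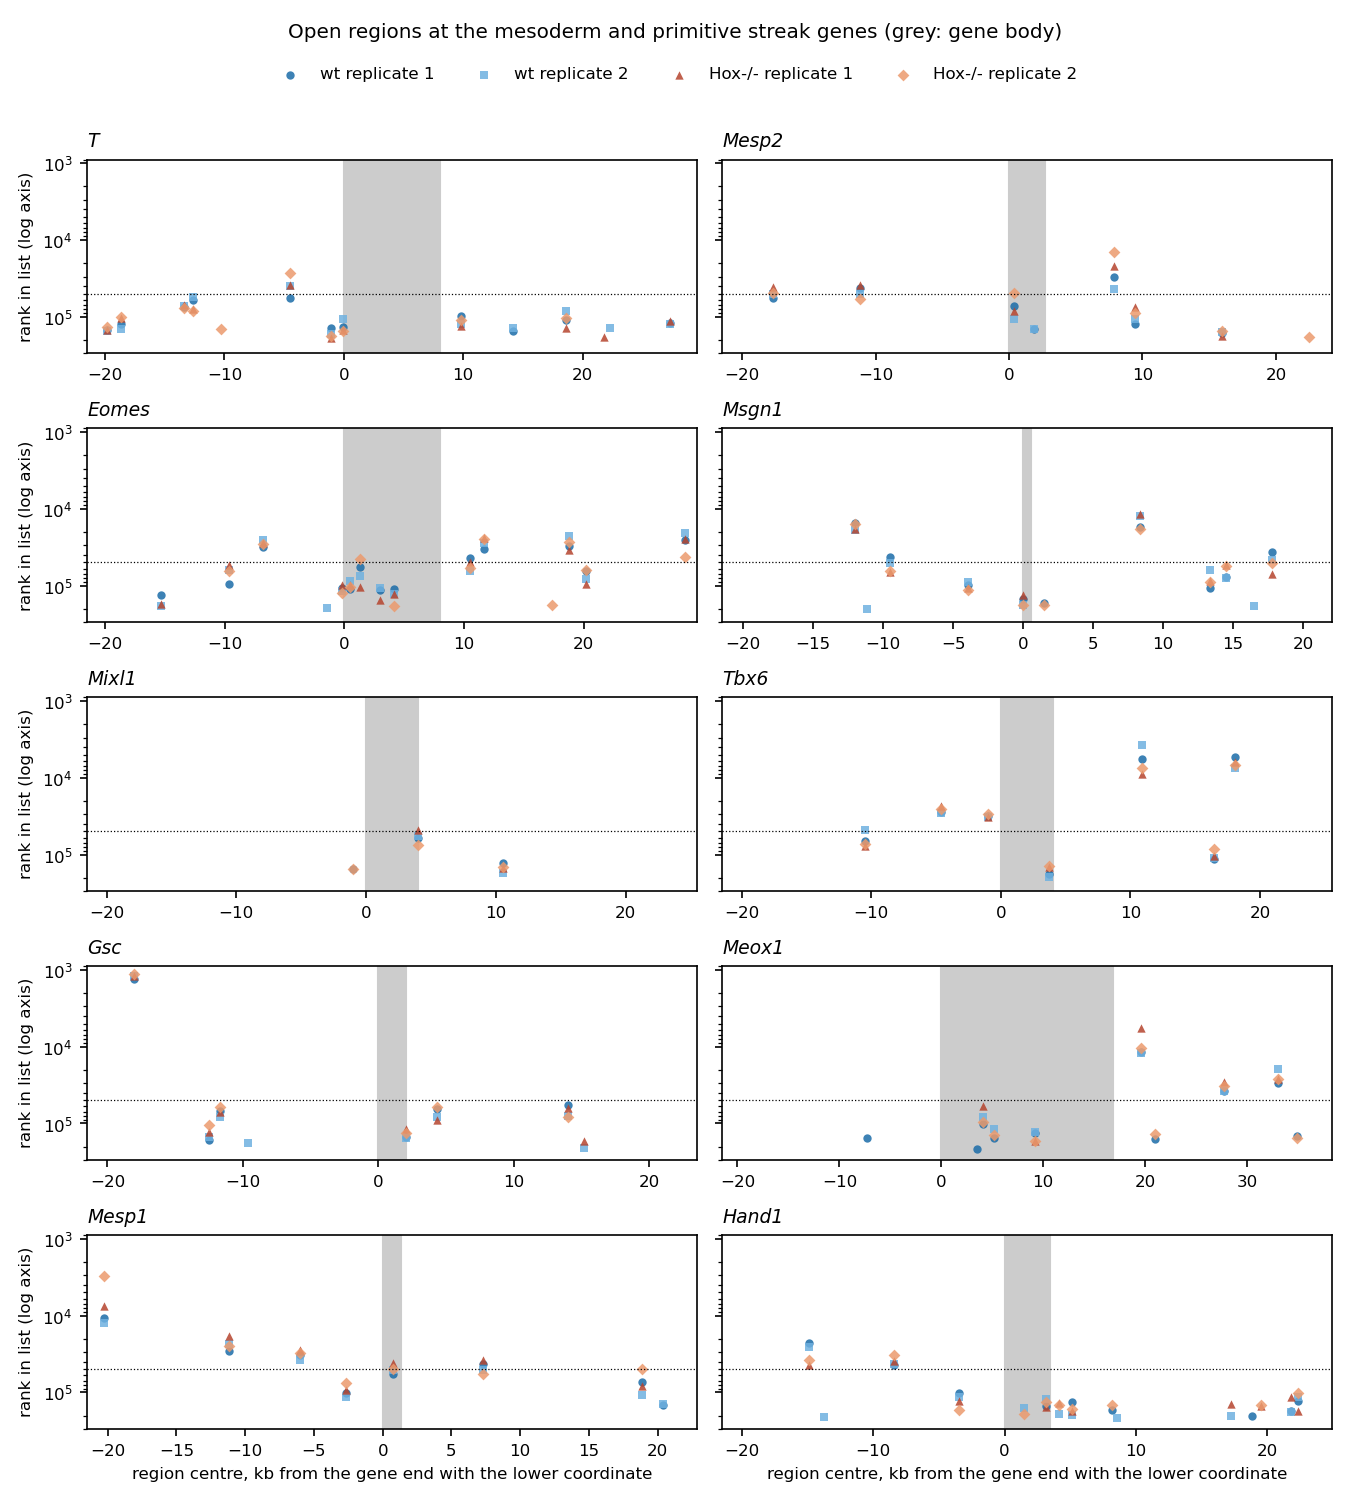
Rank within the library's list (log axis, strongest at top) of each region against its distance in kb from the gene end with the lower coordinate, 1 panel per gene and 1 symbol per library; the gene body is grey and the dotted line marks rank 50000. Symbols near gene ends mostly lie below the line, and most symbols above it lie away from the gene's own ends, as at Gsc and Meox1; at Tbx6 they lie near ends of neighbouring genes.

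**Figure D2:**
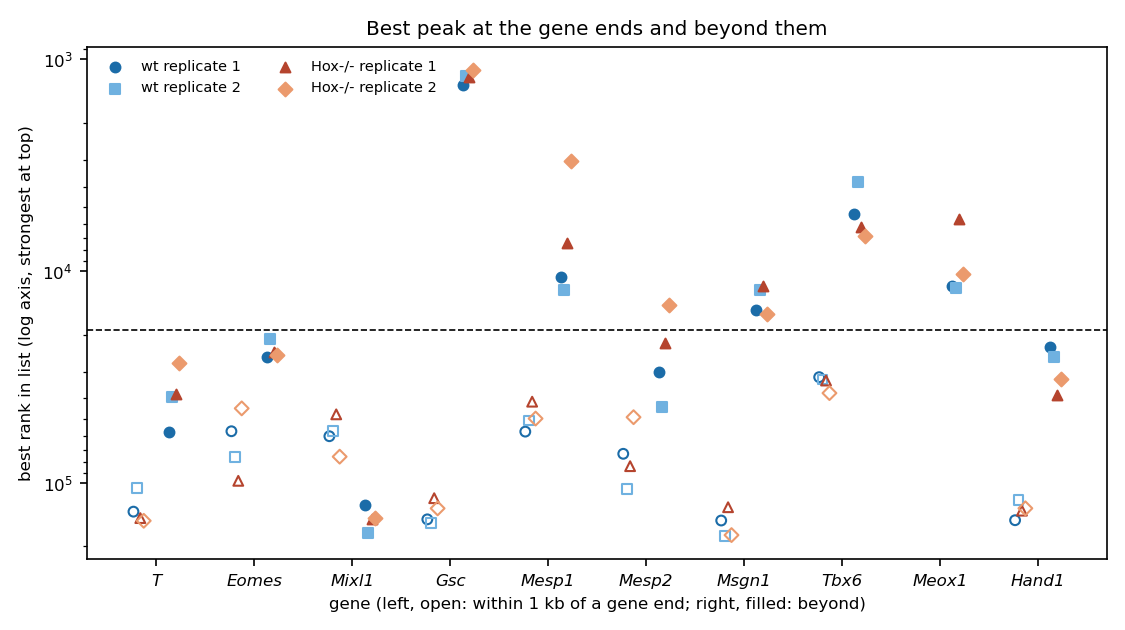
Best rank within the list (log axis, strongest at top) for each gene and library within 1 kb of a gene end (open symbols, left) and beyond (filled symbols, right); the dashed line is the median best end rank of protein-coding genes, 19060. The open symbols of all 9 genes lie below the line, and in each gene but Mixl1 the filled symbols lie above the open ones; Meox1 has no open symbol.

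Among the streak genes, Gsc, a homeobox repressor of the organizer, had the strongest region of the set. The region chr12:104452639-104453693 lay 19.5 kb downstream of the start site, beyond the gene. It ranked 1322 and 1199 in wt against 1212 and 1130 in Hox-/-, that is, among the best 0.553% to 0.632% of each list, with a fold over background of 12.3 to 13.3. The genotypes overlapped. The region over the Gsc start, chr12:104473121-104473455, ranked 148935 and 155115 in wt and 118343 and 132182 in Hox-/-. The Hox-/- lists are shorter, which by itself lowers the rank number of a weak peak.

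To compare genotypes, ranks were taken anew among the 122749 regions that all 4 libraries call, so that each library had a list of the same length. The ranks printed for a region are those in the library's own list unless stated otherwise, and the shifts are from the common list. The genotype shift is the mean log2 rank of wt minus that of Hox-/-, so that a value above 0 means a higher rank in Hox-/-. A region was counted as apart when the size of this shift exceeded the difference between replicates in both genotypes, which is possible only where the genotypes do not overlap. Of all regions called in all 4 libraries, 28.0% were apart, 13.9% with the higher rank in Hox-/- and 14.0% with the higher rank in wt. The region over the Gsc start had common ranks of 110115 and 111787 in wt and 95559 and 104069 in Hox-/-, a shift of 0.15 with replicate differences of 0.02 and 0.12, and was apart. The only other Gsc region apart, 14.4 kb downstream of the start, had a shift of 0.24 with replicate differences of 0.06 and 0.20.

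At the 10 loci 23 of the 64 regions were apart (35.9%), 14 in the direction of Hox-/- (21.9%) and 9 in that of wt (14.1%). By rank of −log10 p the share toward wt was thus near that of all regions, and the share toward Hox-/- was above it. Whether the loci differ from other regions was not tested. The median size of the shift was 0.20, beside a median difference of 0.20 between Hox-/- replicates and 0.21 between wt replicates. Over all regions these medians were 0.17, 0.21 and 0.19. The shift is between means of 2 libraries and the replicate difference between single libraries, so their sizes are not directly comparable. With windows of 20 kb the median signed shift per region was −0.02, against 0.00450 over all regions. The median rank of the 64 regions in each library was 58192 and 65076 in wt and 62168 and 58043 in Hox-/-, and the genotypes overlapped (shift of the medians 0.03, exact permutation test over the 4 libraries, two-sided, p = 0.67; the smallest p that 2 against 2 libraries can give is 0.33). This value depended on the setting: it was 0.13 with windows of 10 kb, 0.17 with windows of 50 kb and −0.08 by rank of the fold, each with the genotypes apart at the smallest possible p. The loci as a group therefore had no stable direction. By rank of the fold in place of −log10 p, 22 of the 23 regions had the same direction and 15 were still apart. In all, 16 of the 64 were apart by fold, near the share of all regions (27.2%), and more of them were apart toward wt than toward Hox-/-. With the replicate numbers taken as pairs, 22 were apart (34.4%), also near that of all regions (34.6%).

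**Figure D3:**
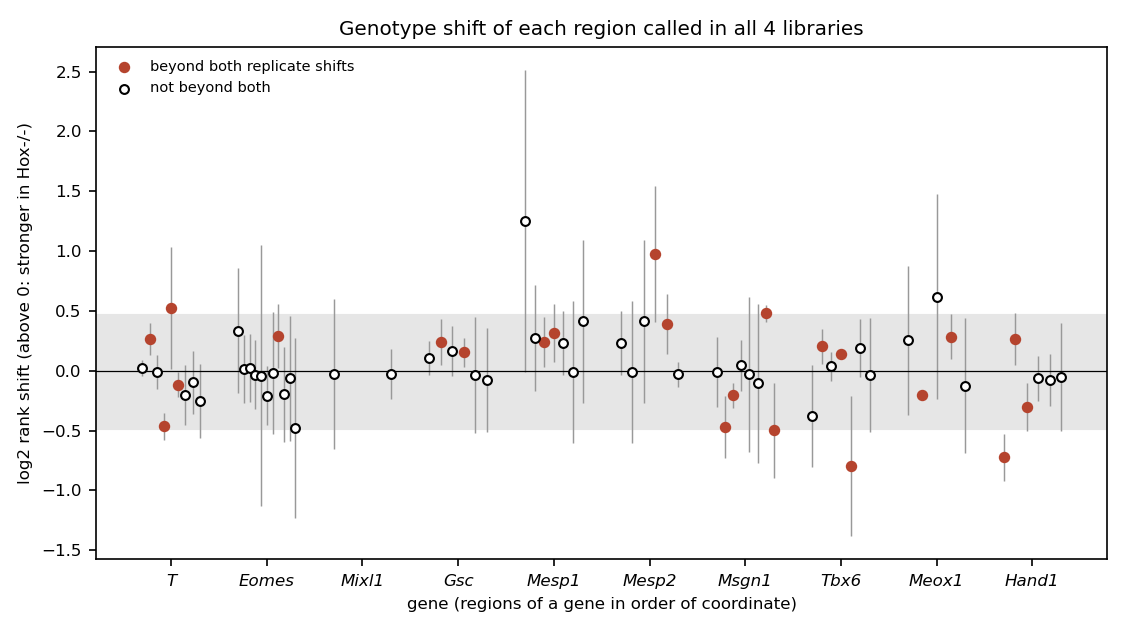
Genotype shift of the rank (log2, above 0 stronger in Hox-/-) of each region called in all 4 libraries, by gene and in order of coordinate; lines extend by the larger of both replicate differences, filled points are apart, and the grey band spans the 5th to 95th percentile of all regions (−0.48 to 0.47). Filled points lie on both sides of 0; at Mesp1 and Mesp2 all 4 of them lie above it, and 3 regions shared by these windows are drawn in both.

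Peak numbers at the loci were 112.5 ± 0.707 in wt (SD, n = 2) and 107 ± 1.41 in Hox-/- (SD, n = 2), a difference of −5.5 peaks (p = 0.33 by the same exact permutation test). The Hox-/- lists were shorter as a whole, and as a share of the list the loci held 0.0524% and 0.0521% of the wt peaks and 0.0553% and 0.0539% of the Hox-/- peaks. With the 190000 strongest peaks of each list the difference was 4 peaks in the other direction, and with windows of 50 kb it was −16. The genes had 3 to 24 peaks each per library, with the fewest at Mixl1 (4, 4, 3 and 4) and the most at Eomes (24 and 24 in wt, 20 and 22 in Hox-/-). The median over protein-coding genes was 10.25 peaks per window.

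T, the factor whose loss truncates the body axis, had its best region 4.03 kb before the start site, at chr17:8429386-8430396. It ranked 57365 and 39319 in wt and 38321 and 27100 in Hox-/-. Every Hox-/- value was better than every wt value, but wt replicate 2 and Hox-/- replicate 1 were close. The shift was 0.53 among common regions, against replicate differences of 0.51 and 0.46, and 0.27 to 0.78 with 1 library left out. By rank of the fold the shift was 0.50 and the region was not apart. The opposite direction was seen 12.4 kb before the start site at chr17:8421581-8422015, within 1 kb of an end of the neighbouring gene T2: it ranked 59768 and 55650 in wt and 78987 and 85144 in Hox-/-, a shift of −0.46 with replicate differences of 0.10 and 0.11. The region over the T start itself, chr17:8433799-8434868, ranked 136981 and 106372 in wt and 146906 and 151294 in Hox-/-, a shift of −0.20 that did not exceed the wt replicate difference of 0.25. It also lay at an end of the neighbouring gene LOC115486424. A weaker region 869 bp before the start, chr17:8433162-8433554, ranked 141706 and 167128 in wt and 188191 and 175789 in Hox-/- and was apart toward wt by both measures (shift −0.12, replicate differences 0.10 and 0.04). Apart toward Hox-/- by both measures was a region 18.4 kb before the start, in the body of T2 (shift 0.26, replicate differences 0.13 and 0.02).

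Eomes, the T-box factor of definitive endoderm and early mesoderm, lay in a window without another protein-coding gene, and 11 of its 15 regions were called in all 4 libraries. Its best region by mean rank lay 3.33 kb past the gene, at chr9:118489464-118490187. The ranks were 33639 and 27723 in wt and 24242 and 25017 in Hox-/-, a shift of 0.29 against replicate differences of 0.27 and 0.06. This was the only one of the 11 regions that was apart. A region at the far edge of the window, which reached the neighbouring gene Golga4, was nearly as strong, at 25497 and 20935 in wt and 24953 and 42677 in Hox-/-, where the replicates lay far apart. A region 6.15 kb before the start site ranked 31608 and 25775 in wt and 28062 and 28433 in Hox-/-, and the genotypes overlapped. Over the start site the ranks were 108812 and 116756 in wt and 97979 and 124968 in Hox-/-, again with overlap. Mixl1, which acts downstream of Nodal signals, had its best region over the gene end at the higher coordinate, chr1:180696321-180697774, ranked 60336 and 56938 in wt and 47569 and 75352 in Hox-/-; the Hox-/- libraries lay on either side of the wt libraries.

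Mesp1 and Mesp2, neighbours on chromosome 7 and regulators of cardiac and segmental mesoderm, stood in a stretch that ranked higher in Hox-/- by −log10 p but not by fold. Of the 10 regions in their joined windows that all libraries called, 8 had a shift above 0 and the median was 0.29; 4 were apart, all toward Hox-/-. By rank of the fold 5 of the 10 had a shift above 0, the median was −0.000885 and 0 were apart. By −log10 p the joined locus was not set off at its edges: from 20 to 100 kb beyond the pair, 12 of 16 regions had a shift above 0 with a median of 0.27, while from 100 to 500 kb 76 of 129 did, with a median of 0.05. By fold 6 of those 16 regions had a shift above 0, with a median of −0.07, and 8 were apart, all toward wt. For the Mesp2 window alone, the median rank of its 6 regions was 57580 and 63922 in wt and 49908 and 48962 in Hox-/-. The shift of 0.29 exceeded both replicate differences (0.15 and 0.03), and 6.63% of protein-coding genes with 3 or more such regions had a higher value. Of those genes, 27.9% were apart in this sense, and 13.8% were apart toward Hox-/-. Of the 9 loci with enough regions, 3 were apart: Mesp2, Meox1 (through 1 region) and, toward wt, Msgn1.

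The 2 regions with the largest shifts of the whole set lay there. At chr7:79818257-79818880, 4.83 kb past Mesp2, the ranks were 30102 and 43892 in wt and 21991 and 14515 in Hox-/-. All Hox-/- values were better than all wt values, and the shift of 0.98 exceeded the replicate differences of 0.51 and 0.57. The fold over background was 11.0 and 9.45 in wt and 10.6 and 12.2 in Hox-/-, so by fold the genotypes overlapped (shift by rank of the fold 0.52, not apart). At chr7:79771423-79772525, in the body of Wdr93 and 21.1 kb from the Mesp1 start, the ranks were 10643 and 12360 in wt and 7393 and 3042 in Hox-/-. The shift was 1.25, and the Hox-/- libraries themselves differed by 1.26, so the region was not apart. Its shift by rank of the fold was 0.07. The regions over the starts were closer: that of Mesp1, chr7:79792276-79793729, ranked 57393 and 50808 in wt and 41453 and 49793 in Hox-/-, with a shift of 0.23 against a Hox-/- replicate difference of 0.27. That of Mesp2, chr7:79810545-79811715, ranked 73040 and 106787 in wt and 83551 and 49061 in Hox-/-, and the genotypes overlapped.

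Among the presomitic genes, Msgn1 had 8 regions called in all 4 libraries, of which 3 were apart toward wt and 1 toward Hox-/-. The region 9.69 kb downstream of the start, chr12:11198412-11199259, ranked 41800 and 50794 in wt and 66526 and 64168 in Hox-/-, a shift of −0.47 with replicate differences of 0.26 and 0.02. The region 13.5 kb before the start, chr12:11222466-11223281, ranked 77453 and 80352 in wt and 53754 and 55881 in Hox-/-, a shift of 0.48 with replicate differences of 0.04 and 0.07. Neither pair of genotypes overlapped, and both regions were also apart by rank of the fold. So was the region 4.21 kb downstream of the start, chr12:11204108-11204740, which ranked 97298 and 89229 in wt and 107007 and 115031 in Hox-/-, a shift of −0.21 with replicate differences of 0.11 and 0.10. A region 16.9 kb before the start ranked 36526 and 46894 in wt and 70208 and 51228 in Hox-/- (shift −0.50); by fold it was not apart. The best region of the locus by mean rank, 7.45 kb before the start, ranked 17078 and 12288 in wt and 11752 and 18547 in Hox-/-, with full overlap. The weak region over the Msgn1 gene ranked 130555 to 178111.

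Tbx6, which directs cells to paraxial mesoderm instead of neural fate, lies among 5 other protein-coding genes in its window (Mapk3, Gdpd3, Ypel3, Ppp4c and Aldoa). Its strongest regions stood at the ends or in the bodies of these neighbours. At chr7:126791855-126792970, over an end of Ppp4c, the ranks were 5715 and 3805 in wt and 8838 and 7515 in Hox-/-, a shift of −0.80 with replicate differences of 0.58 and 0.22. That shift was −1.09 to −0.50 with 1 library left out. Both wt libraries ranked higher, also by rank of the fold (shift −0.45). The region at Aldoa ranked 5404 and 7547 in wt and 6221 and 6877 in Hox-/-, with overlap. The 1 region inside Tbx6 ranked 180372 and 197845 in wt and 145453 and 141039 in Hox-/-, a shift of 0.14 that was small but exceeded the replicate differences of 0.03 and 0.02. It also lay within 1 kb of an end of Ppp4c. A region 4.37 kb before the Tbx6 start, at Gdpd3 and Ypel3, was apart toward Hox-/- as well (shift 0.20, replicate differences 0.04 and 0.15), though not by fold.

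Meox1, a somite homeobox gene, had 0 peaks within 1 kb of its ends but a strong region 2.26 kb from its end at the higher coordinate, chr11:101896616-101897674. It ranked 11819 and 12041 in wt and 5690 and 10378 in Hox-/-. Both Hox-/- libraries ranked higher, but they differed from each other by 0.86, more than the shift of 0.62. A region 10.5 kb past the same end, chr11:101904877-101905671, ranked 38143 and 37670 in wt and 28870 and 32605 in Hox-/-, a shift of 0.29 that exceeded both replicate differences (0.02 and 0.18); by rank of the fold it was not apart. This region is also the median of the 5 Meox1 regions, so the shift of the locus median is its own. In the opposite direction, the region chr11:101886437-101886952 inside the gene ranked 132386 and 127721 in wt and 167441 and 169356 in Hox-/-, a shift of −0.20 with replicate differences of 0.04 and 0.00245, and was apart by both measures.

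Hand1, the bHLH factor of trophoblast and lateral mesoderm, showed the largest shift toward wt outside the Tbx6 window. The region chr11:57813573-57814122, 14.6 kb below the gene, ranked 22976 and 25614 in wt and 44384 and 37939 in Hox-/-. The genotypes were well separated (shift −0.72, replicate differences 0.15 and 0.20), and by rank of the fold the shift was −0.71. The fold over background was 12.5 and 12.3 in wt and 9.25 and 10.1 in Hox-/-. A second region 8.15 kb below the gene went the other way, with ranks of 44138 and 42299 in wt and 38658 and 32507 in Hox-/- (shift 0.27, replicate differences 0.06 and 0.22; by fold 0.49). A weaker region 3.13 kb below the gene was apart toward wt by both measures (shift −0.30, replicate differences 0.12 and 0.20). The best peak of the locus was thus the first region in both wt libraries and the second in both Hox-/- libraries. The region over the Hand1 end at the higher coordinate ranked 150355 and 120690 in wt and 153322 and 132102 in Hox-/-, with overlap of the genotypes.

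**Figure D4:**
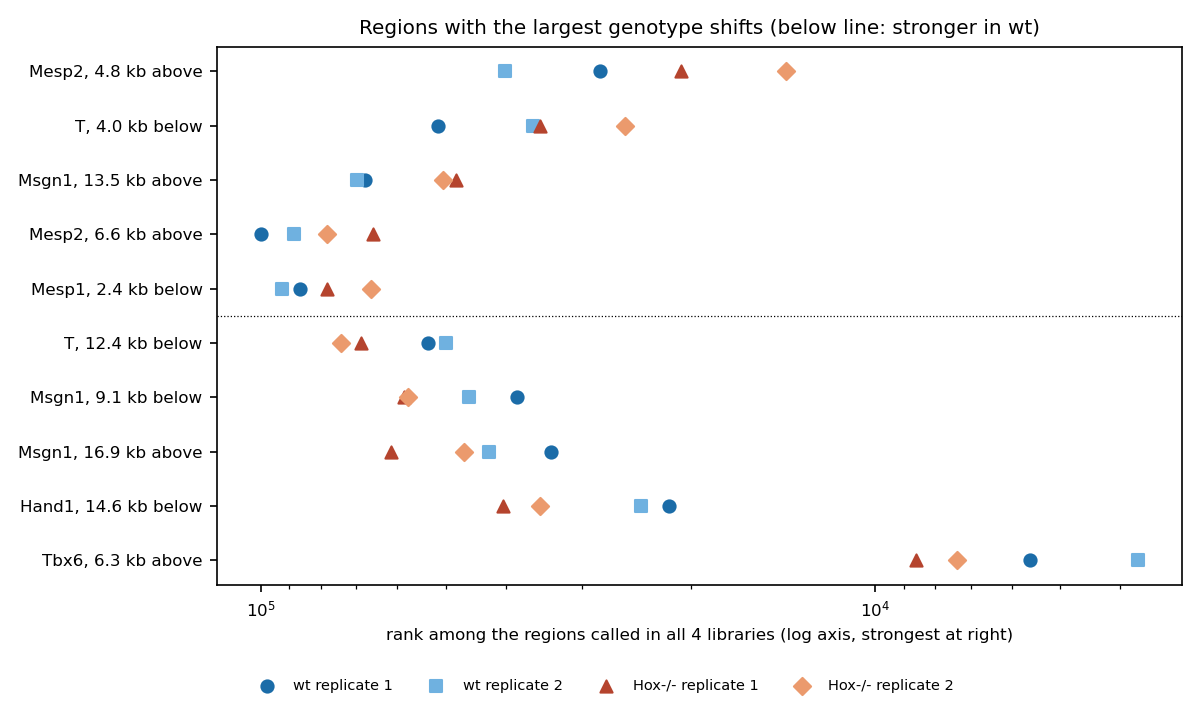
Rank among the regions called in all 4 libraries (log axis, strongest at right) of the 5 regions with the largest shifts in each direction among those apart; labels give the gene and the distance below or above its nearest end in kb of coordinate. Within each row the wt and Hox-/- symbols do not overlap; relative to the replicates the separation is widest at the Msgn1 region 13.5 kb above the gene, followed by the T region 12.4 kb below it.

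Taking the best peak of each window in its own list, 4 of the 10 genes were apart: T (shift 0.56), Mesp2 (1.02), Tbx6 (−0.53) and Hand1 (−0.55). Among protein-coding genes 26.9% were apart by this measure, 14.2% toward Hox-/- and 12.8% toward wt. At Tbx6 the best peak was the region at Ppp4c in wt replicate 2 and the region at Aldoa in every other library. The Aldoa region alone overlapped between genotypes. With windows of 10 kb the Hand1 shift was 0.29, since the region at 14.6 kb is then outside, and for Mesp1 the shift of 1.27 became 0.26 for the same reason. Ranked by fold, where another peak of the window can be the best, 2 of the 10 genes were apart, Tbx6 and Hand1 (26.8% of protein-coding genes), and the shift was 0.05 at T and 0.53 at Mesp2. With windows of 50 kb 2 genes were apart as well, Msgn1 and Tbx6 (27.0% of protein-coding genes).

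Regions present in 1 genotype only were few and weak. Of the 95 regions 64 were called in all 4 libraries (67.4%, against 59.0% of all regions), 6 in 3, 11 in 2 and 14 in 1. Peaks of both wt libraries, with 0 of Hox-/-, made up 2 regions (2.11%, against 3.84% of all regions): chr17:8448432-8448678 past T, which ranked 155430 and 139073, and chr7:79812504-79812730 inside Mesp2, which ranked 145421 and 143139. The reverse held for 1 region (1.05%, against 1.23% of all), chr11:57848104-57848412 past Hand1, which ranked 148734 and 146482. All 3 were at a fold of 3.59 to 4.24, in the weak part of the lists.

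Around the 10 factors, 54 genes of the streak and mesoderm program were examined in the same way. Of these, 51 had a peak within 1 kb of a gene end in all 4 libraries, against 69.1% of protein-coding genes, and 2 had 0 such peaks in every library: Lefty2, an inhibitor of Nodal, and Gata4, a cardiac and endodermal factor. By the best peak of the window, 9 of 54 genes were apart (16.7%), 3 toward Hox-/- and 6 toward wt, against 26.9% of all protein-coding genes. Ranked by fold 18 were apart (33.3%, against 26.8%), 13 toward Hox-/- and 5 toward wt, so the share stood on either side of the background and the balance of directions turned with the setting. The median shift over the 54 genes was −0.01, against 0.01 over protein-coding genes. Of the 10 signals, 4 were apart, all toward wt by −log10 p: Nodal (−0.39), Wnt3 (−0.51), Fgf8 (−0.56) and Lefty2 (−0.67). The best peak at Nodal, the ligand that induces the streak, ranked 6805 and 6953 in wt and 8946 and 9084 in Hox-/-. That at Lefty2 ranked 691 and 671 in wt and 955 and 1231 in Hox-/-. Ranked by fold, however, 4 of the 10 signals were apart toward Hox-/- (Nodal, Wnt3a, Bmp4 and Lefty2) and 1 toward wt (Fgf8). Of the 9 genes apart by −log10 p, 3 were apart in the same direction by both measures: Fgf8, Sp5 and Cdh2.

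Of 14 receptors and signal transducers, Acvr1b, an activin and Nodal receptor, was apart toward wt by −log10 p alone (−0.98), with ranks of 6796 and 6611 in wt and 12729 and 13687 in Hox-/-. Lef1, a nuclear partner of β-catenin, was apart toward Hox-/- by −log10 p alone (1.31), with ranks of 1742 and 2907 in wt and 1231 and 668 in Hox-/-. By fold, 2 of the 14 were apart, Foxh1 and Ctnnb1, both toward Hox-/-. Of 8 streak and node factors, Sp5, a Wnt target, was apart by −log10 p toward Hox-/- by a small amount (0.14) and Cdh2, N-cadherin, toward wt (−0.45). By fold 3 of the 8 were apart toward Hox-/- (Otx2, Sp5 and Nkx1-2) and 2 toward wt (Evx1 and Cdh2). By −log10 p 0 of the 11 presomitic and somitic genes were apart, and of the 11 genes of lateral and cardiac mesoderm only Pdgfra was, by 0.37 toward Hox-/-. Ranked by fold, 3 of the presomitic and somitic genes were apart (Ripply2 toward Hox-/-, Lfng and Foxc1 toward wt) and 3 of the lateral and cardiac genes (Foxf1, Kdr and Bmp2, toward Hox-/-), but not Pdgfra. The shares over protein-coding genes were 26.9% and 26.8%. The best peak lay beyond the gene ends in 33 of the 50 genes with peaks in both places in all 4 libraries, against 52.9% of protein-coding genes.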

How the data were processed

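The authors deposited 1 list of called peaks per library, with replicates not pooled. Per the submitters' processing notes, the build was mm10 and the tools, named without role or order, included cutadapt 4.8, Bowtie2 2.5.0, Picard 2.18.2, bedtools 2.30.0, MACS2 2.2.9.1 and deepTools 3.5.4. How duplicate and mitochondrial reads were treated and whether reads were shifted for the transposase are not given in the sources used here. Each deposited line has a score, a fold over background (a ratio), a −log10 p and a −log10 q of the summit. All of them come from the peak caller of the authors and served here to rank, filter and describe peaks of 1 list. The lowest deposited −log10 q was 1.30, so weaker peaks are not part of the lists.

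Several lines can share an interval, and each line was counted as a peak. Regions, ranks and shifts were computed with Python 3.11.15, numpy 2.4.6 and pandas 2.3.3. The computation was tested on simulated data in which the planted shifts were large beside the noise. Such data do not show how often the rule for apart is right at the shifts reported here. Gene positions and the 250 promoter bases came from RefSeq GRCm38.p6, the same build as mm10. Gene ends are both ends of the annotated gene.

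The genes, the other lists and the rules were chosen with earlier results of these data known. All 10 genes were named; of their regions, those at gene ends, the best of each gene, those of 1 genotype only and the 5 largest shifts in each direction could be named, and others were chosen after their values were seen, as were the spans around Mesp1 and Mesp2, the medians per locus, the comparison of ends with the rest of the window and the CpG content. Of the 54 genes, those apart or without an end peak were named.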

Additional observations from a re-analysis of the deposited data

How the results depend on the processing

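With 2 libraries per genotype no permutation test can pass 0.05, and depth is unknown, with a lower −log10 p at equal fold in Hox-/- replicate 1. The 23 regions apart became 42 of 121 with windows of 50 kb (34.7%), 16 of 38 with windows of 10 kb (42.1%), 16 of 64 by fold (25%, against 27.2% of all regions) and 17 to 23 under the other alternatives that kept all libraries (31.5% to 35.9%); leaving out 1 library gave 36 to 42 of 65 to 68 (53.7% to 61.8%), since only 1 replicate difference must then be exceeded, and over all regions the share then was 46.8% to 53.5%. The median shift of 0.03 was −0.0778 ranked by fold, −0.0278 at a minimum −log10 q of 5, 0.13 with windows of 10 kb, 0.17 with windows of 50 kb and −0.0503 to 0.11 with 1 library left out (−0.0503 without wt replicate 2 and −0.00614 without Hox-/- replicate 2); the cause was not tested. The difference of −5.5 peaks was 4 with the 190000 strongest peaks of each list, in which all lists are equally long, −16 with windows of 50 kb, −10 at a minimum −log10 q of 5, −3 with overlapping peaks merged and −6.5 to −4.5 with 1 library left out. Regions in both wt libraries only, 2 in number, became 7 with windows of 50 kb, 4 at a minimum −log10 q of 5 and 3 to 9 with 1 library left out. The 1 region in both Hox-/- libraries only became 0 with windows of 10 kb, 2 with windows of 50 kb, 2 with the 190000 strongest peaks, 2 at a minimum −log10 q of 5 and 1 to 4 with 1 library left out. The 9 genes with an end peak in all libraries were 8 at a minimum −log10 q of 5 and 9 otherwise. The 4 genes apart by their best peak became 2 with windows of 50 kb, 2 ranked by fold and 5 to 8 with 1 library left out (8 without Hox-/- replicate 1, where 49.8% of protein-coding genes were apart). Not all of the 4 stayed among them: T was no longer apart without wt replicate 1, and T and Tbx6 were not without Hox-/- replicate 2. All 4 stayed apart without wt replicate 2 and without Hox-/- replicate 1. The best rank shift of Hand1 was 0.29 with windows of 10 kb, and that of T was 0.17 with windows of 50 kb. With 1 library left out the best rank shift was 0.29 to 0.83 at T and −0.78 to −0.28 at Tbx6. Of the 54 other genes, 9 apart became 18 ranked by fold and 22 to 31 with 1 library left out, where 46.1% to 51.8% of protein-coding genes were apart. With the replicate block, in which the mean difference of same-numbered libraries must exceed the difference between these pairs, 22 regions (34.4%, against 34.6% of all regions), 3 of the 10 genes (T, Gsc and Hand1) and 17 of the 54 genes were apart (33.4% of protein-coding genes) and the other values were unchanged at −5.5 peaks and 0.03; the libraries share only a number, and across 122749 regions the rank difference between wt replicates correlated with that between Hox-/- replicates at 0.00409. For the best peaks, ranks within the own list were already the main setting, so ranks among common regions were added in their place, and so was leaving out regions within 1 kb of an end of another gene (17 of 54 regions apart, median shift 0.08); both were chosen after seeing the data.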
